A study of Mus musculus with 16 samples.

Results

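In activated splenic B cells of the mouse, 286 regions of open chromatin were listed as ATAC-seq peaks in every Brg1fl/+ list used by the rule and in none of the Brg1fl/fl lists. Peaks that touched or overlapped were joined across 7 of the 8 deposited lists (Brg1fl/+ replicates 1, 2 and 4 and Brg1fl/fl replicates 1 to 4), and a region was kept when each of the 3 Brg1fl/+ lists and none of the 4 Brg1fl/fl lists had a peak overlapping it by at least 1 bp. The 286 members were 1.73% of the 16528 joined regions. Members were chosen by detection, that is by which lists held a peak, so their absence from the Brg1fl/fl lists is a description and carries no test. Brg1fl/+ replicate 3, the shortest list of its genotype, had no part in the rule, so members could be looked for there. Its list name groups it with replicate 4, which the rule used, and whether they share a mouse is not given. The condition in the name of the group, Brg1 present, refers to cells that kept 1 allele, and a region that is missing from a list was below the caller's threshold there, which does not show that it was closed.

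Brg1, encoded by Smarca4, is an ATPase of the BAF (SWI/SNF) chromatin remodelling complexes, which slide or evict nucleosomes and thereby open DNA to transcription factors. In lymphocytes these complexes are known above all for their work at enhancers, the distal elements bound by lineage and signal-dependent factors such as PU.1, RUNX, E2A and the AP-1 protein BATF, whereas CpG-rich promoters can stay open by other means. ATAC-seq marks open DNA with the Tn5 transposase, which inserts sequencing adapters where no nucleosome is in the way.

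The 2 groups were CD23-Cre Brg1fl/+ and CD23-Cre Brg1fl/fl mice, with 4 ATAC-seq libraries each. CD23-Cre acts late in B cell maturation, in the spleen, so both groups carried Cre and both had lost at least 1 allele of Smarca4: the Brg1fl/+ cells are heterozygous, not wild type. Splenic B cells were purified with CD43 magnetic beads and stimulated in vitro with LPS at 10 µg/mL and IL-4 at 20 ng/mL. The time was 72 hours by the sample labels and 96 hours by the series text. In the paper's methods, cells for ATAC-seq were taken 4 days into activation. From these, 50000 cells went into each library. The labels give neither age nor the number of mice behind the libraries, and p-values here measure the spread between these libraries. The 8 RNA-seq libraries of the series were not analysed here.

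The lists of the 3 Brg1fl/+ libraries of the rule held 7632 to 14614 peaks and those of the 4 Brg1fl/fl libraries 6271 to 9216, and the background was 3.60 to 6.47 and 3.39 to 6.89 fragments per kb. Neither the difference in list length (two-sided exact permutation test, p = 0.2) nor that in background (exact permutation test, p = 0.486) passed the test. Another measure did separate the genotypes. At 3981 promoters detected in all 8 libraries, the mean summit stood 66.8, 70.1 and 56.2 times above the library's background in Brg1fl/+ replicates 1, 2 and 4 and 50.3 times in replicate 3, but 33.4, 33.4, 34.0 and 36.4 times in Brg1fl/fl replicates 1 to 4. The difference of the means was 30.1 (3 libraries against 4, two-sided exact permutation test over 35 assignments, p = 0.0286, the smallest this design can give). Summits over background were thus lower in Brg1fl/fl even at promoters that both genotypes shared. The shortest peak in a list also differed, at 195 to 204 bp against 231 to 243 bp (exact permutation test, p = 0.0286). Their part in the absence of the members was not tested. Libraries 1 and 2, and libraries 3 and 4, are grouped in the names of the deposited lists, and the dispersion of their summit fragments, where 1 is counting noise alone, was 0.815 to 0.928 in Brg1fl/+ against 1.02 to 1.42 in the other pairs of that genotype and 0.848 to 0.983 in all pairs of Brg1fl/fl. Each library was counted as labelled. Averaging the grouped libraries leaves 2 values against 2, with a smallest possible exact p of 0.333. Promoters of B cell markers were found in 4 to 6 of 10 genes per library, against 0 to 3 of 10 T cell, 0 to 3 of 10 myeloid, 0 to 1 of 8 NK cell, 1 of 8 erythroid and 2 to 5 of 8 plasma cell promoters. The deletion cannot be checked in peak lists, since a peak at the Smarca4 promoter says nothing of the floxed exons.

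The members were more often distal than the regions that both genotypes shared. Regions were classed by their centre alone, so a region called distal can still reach into a promoter. Of the 286, 175 (61.2%) were distal, with 80 in introns, 75 in intergenic sequence, 13 at transcription termination sites and 7 in exons. The other 111 (38.8%) were at promoters, defined by a window around each annotated start that reached 1000 bp before and 100 bp past it. The 95% Wilson interval of the distal share, for counting error only, was 55.4% to 66.7%. In the regions listed in all 7 libraries, by contrast, 13.9% of 5079 were distal. Of all 16528 joined regions, 43.6% were distal. The share of distal regions fell in order with the number of Brg1fl/fl lists that held the region: 61.2% with none, 38.4% with 1, 27.3% with 2, 18.3% with 3 and 13.9% with 4. Among the 7148 regions with a peak in all 3 Brg1fl/+ lists, 4% had no Brg1fl/fl peak. The share was 13.5% of 1294 distal regions and 1.9% of 5854 promoters. In the opposite direction, 31 regions (0.188% of all) had a peak in all 4 Brg1fl/fl lists and in none of the 3 Brg1fl/+ lists, of which 30 were distal and a median of 81.4% of the sequence was repeat-masked, against 6.86% in the members. The 2 directions were nearer in size in lists of equal length. With the best 6271 peaks of each library there were 108 members, 49 of them distal (45.4%), and 82 opposite regions, and 38 of the 108 were among the 286. With peaks under a −log10 q of 10 dropped, 38.9% of 244 members were distal, so distal regions were the majority of members in the full lists and not under these stricter settings. The regions in all 3 Brg1fl/+ lists also fell, to 5146 with equal lists and 5518 at the stricter q. Their distal share there is not given, so the members' share has no baseline in these settings.

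**Figure D1:**
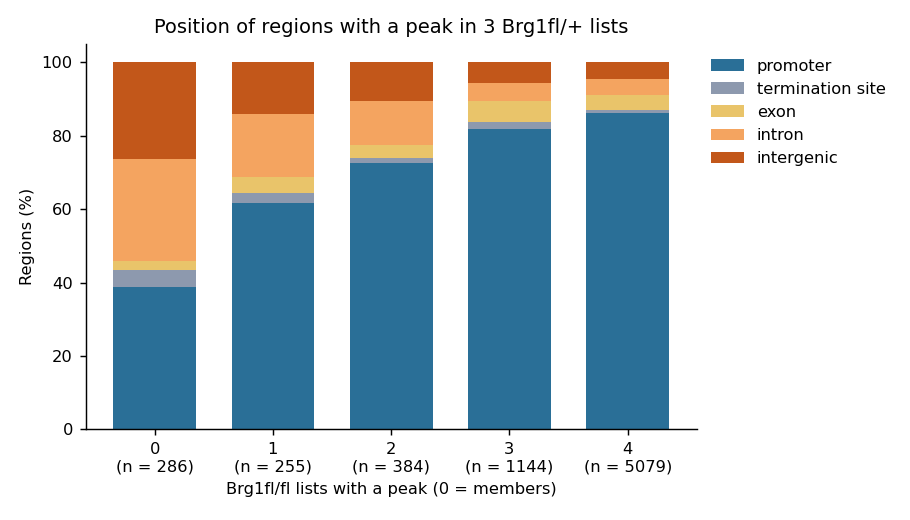
Share of regions (%) in each genomic position for regions with a peak in all 3 Brg1fl/+ lists, by the number of Brg1fl/fl lists that also had a peak; 0 marks the members, and n is given under each bar. Promoters made up 38.8% of the members and 86.1% of the regions found in all 7 lists.

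The next sequences are 121 bp of members around the summit of the best peak, from the GRCm38 (mm10) reference, printed on the plus strand, with matches to the motifs named below in capitals. They are shown because they hold motifs of lymphoid factors that were more frequent in distal members than in distal regions of all lists, and 1 of them, near Bcl11a, is classed as a promoter member.

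These members hold the PU.1 type ETS motif (GAGGAAGT, on either strand), and the Rere member the PU.1-IRF composite motif (GGAANTGAA) overlapping it. PU.1 and the ETS family are central to B cell enhancers, and the second Dnmt3a member also holds the RUNX motif (TGTGGTT).
Dnmt3a intron, -26330 bp, chr12:3834543-3834663, + strand: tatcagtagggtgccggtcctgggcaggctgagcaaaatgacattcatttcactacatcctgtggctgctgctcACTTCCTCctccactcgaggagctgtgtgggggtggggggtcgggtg
Dnmt3a intron, -4966 bp, chr12:3856099-3856219, + strand: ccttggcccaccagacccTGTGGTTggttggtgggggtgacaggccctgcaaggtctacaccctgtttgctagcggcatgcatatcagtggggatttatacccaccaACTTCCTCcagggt
Icosl, intergenic, chr10:78087169-78087289, + strand: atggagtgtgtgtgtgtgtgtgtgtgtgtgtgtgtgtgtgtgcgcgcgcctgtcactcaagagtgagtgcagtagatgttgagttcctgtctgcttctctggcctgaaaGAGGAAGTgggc
Rere, end of an annotated transcript, chr4:150566285-150566405, + strand: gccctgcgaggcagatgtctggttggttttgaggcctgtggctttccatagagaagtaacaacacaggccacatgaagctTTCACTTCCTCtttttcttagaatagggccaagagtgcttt

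These members hold the AP-1 and BATF motif (TGANTCA), bound by dimers of Jun proteins with Fos or BATF. The Ets1 member adds the octamer (OCT, ATGCAAAT) and the MYC E-box (CACGTG), and the Ccr7 member the KLF and SP box (GGGCGG).
Ccr7 intron, chr11:99150553-99150673, + strand: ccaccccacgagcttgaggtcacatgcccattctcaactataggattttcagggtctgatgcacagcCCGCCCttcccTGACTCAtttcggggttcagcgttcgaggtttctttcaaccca
Ets1, end of an annotated transcript, chr9:32652324-32652444, + strand: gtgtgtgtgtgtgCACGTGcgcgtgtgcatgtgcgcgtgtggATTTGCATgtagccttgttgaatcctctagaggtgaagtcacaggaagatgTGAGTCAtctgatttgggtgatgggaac
Itga4, intergenic, chr2:79124462-79124582, + strand: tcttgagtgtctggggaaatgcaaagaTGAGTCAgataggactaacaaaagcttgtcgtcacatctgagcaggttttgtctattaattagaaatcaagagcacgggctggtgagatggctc
Akap13, intergenic, chr7:75387965-75388085, + strand: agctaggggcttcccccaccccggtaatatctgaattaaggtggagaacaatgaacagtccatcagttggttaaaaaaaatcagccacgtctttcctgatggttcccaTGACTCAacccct

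These members hold the E2A E-box (CAGCTG), the site of the E proteins that drive B cell development, or, near Bcl11a, an IRF site (GAAANNGAA) beside the STAT6 site, TTC and GAA 4 bases apart, through which IL-4 acts. EBF1 sites (CCCNNGGG) are also in capitals.
Prdm1, intergenic, chr10:44380927-44381047, + strand: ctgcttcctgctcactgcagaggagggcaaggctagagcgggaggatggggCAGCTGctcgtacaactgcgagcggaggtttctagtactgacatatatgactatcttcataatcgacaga
Sh2b3 intron, chr5:121833995-121834115, + strand: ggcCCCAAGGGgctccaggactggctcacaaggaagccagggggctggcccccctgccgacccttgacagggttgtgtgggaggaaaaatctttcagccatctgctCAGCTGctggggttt
Bcl11a, 119751 bp away, at the start of Gm12066, chr11:24200362-24200482, + strand: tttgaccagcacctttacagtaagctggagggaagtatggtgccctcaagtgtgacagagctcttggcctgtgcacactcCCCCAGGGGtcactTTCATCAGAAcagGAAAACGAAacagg

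Motifs were searched within 100 bp of the summit on both strands. In the 175 distal members the E2A E-box was found in 20.6%, the RUNX motif in 14.3%, the AP-1 and BATF motif in 12.6%, the PU.1 type motif in 10.3% and the STAT6 motif in 7.43%. In the 698 distal regions of assembled chromosomes detected in all 7 lists the shares were 7.16%, 4.87%, 3.01%, 1.43% and 1.43%, so each was lower. Across all 7153 distal regions they were 13.5%, 6.57%, 8.05%, 3.79% and 4.05%, between the other values. Much of this was shared with the regions nearest in detection. In the 97 distal regions that 1 Brg1fl/fl list also held, the E2A E-box was found in 17.5%, the RUNX motif in 13.4%, the AP-1 and BATF motif in 7.22%, the PU.1 type motif in 4.12% and the STAT6 motif in 9.28%, which is above the members' share, and the KLF and SP motif in 16.5%. In the 104 held by 2 Brg1fl/fl lists the first 5 shares were 17.3%, 3.85%, 10.6%, 3.85% and 6.73%, and the KLF and SP motif stood at 33.7%. No test was made of these differences. The KLF and SP motif ran the other way and had the largest difference of the 17 motifs, with 20.0% of distal members and 47.3% of distal regions in all lists, against 21.9% of all distal regions. The other ETS motif, CCGGAAGT (1.71%, 4.73% and 1.64% in this order), and the NFY motif, CCAAT (17.1%, 22.8% and 21.4%), also ran this way. Within 250 bp the NFY motif turned, at 41.7% of distal members and 35.4% of distal regions in all lists. EBF1 sites (16.6%, 14.9% and 13.1% in the same order), NF-kB sites (9.14%, 6.88% and 5.91%) and the CTCF core (0.571%, 0.716% and 1.52%) were closer together. Base composition moved with these shares: the median GC content of distal members was 53.4%, against 62.8% in distal regions of all 7 lists and 53.2% in all distal regions, and the median ratio of observed to expected CpG was 0.265, 0.745 and 0.307. Its part in the motif shares was not tested. At promoter members the KLF and SP motif was found in 55.9%, against 76.0% of promoters in all lists, and the E2A E-box in 15.3% against 7.87%. None of the 17 motifs was found in 52 members (18.2%). A match describes letters in a window and is not a bound site.

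**Figure D2:**
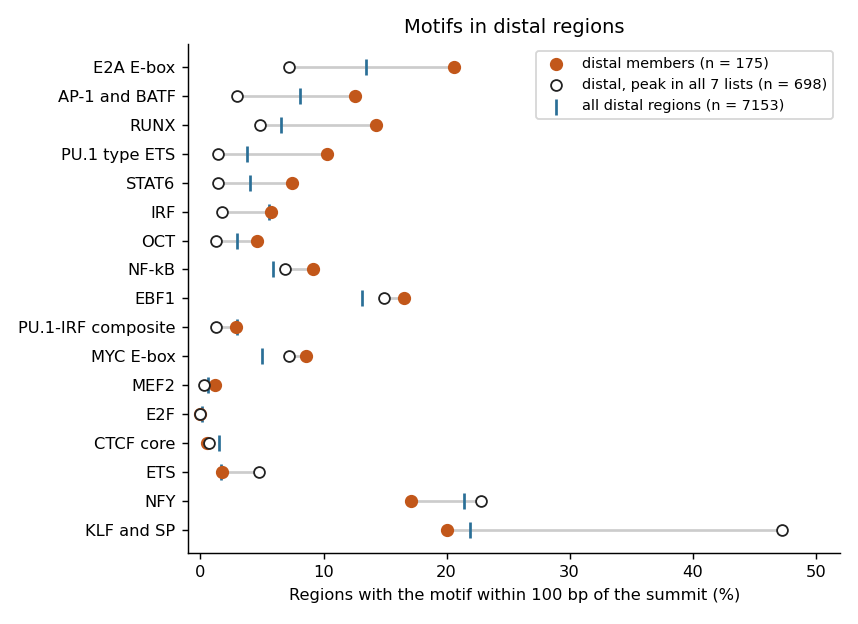
Share of regions (%) with each of 17 motifs within 100 bp of the summit, for distal members (filled), distal regions with a peak in all 7 lists (open) and all distal regions (bar). The E2A, RUNX, AP-1 and BATF, PU.1 and STAT6 motifs lie to the right in the members and the KLF and SP, NFY and ETS motifs to the left.

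The members were mostly weak peaks. Fold here is the ratio the peak caller gave of a summit's pileup to the background expected at that place in the same library. The median fold of the 286 members was 8.47 in Brg1fl/+ replicate 1, 7.69 in replicate 2 and 6.36 in replicate 4, with values from 3.51 to 42.6 over the 3 lists. Ranked by q within each list, with 0% for the best, the median member stood at 53.2%, 68.2% and 83.7%, and 170 members (59.4%) were in the worse part of all 3 lists, beyond the middle rank. In only 8 members was the worst of the 3 ranks in the better part. The median summit stood 18.9 times above background (mean of the 3 libraries), against 53.9 times in the regions of all 7 lists. The medians of distal members (19.9) and promoter members (17.6) were close. Distal members lay at a median of 14884 bp from the nearest protein-coding start site, against 5477 bp for distal regions in all lists, and 139 of 175 (79.4%) lay within 50000 bp of one. The nearest Brg1fl/fl peak was at a median of 28690.5 bp. It lay within 1000 bp for 4 members and within 10000 bp for 58 (20.3%).

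The 10 distal members with the best rank in their worst list, leaving out narrow and repeat-rich ones, had folds of 5.50 to 20.0, and 6 of them were also listed in Brg1fl/+ replicate 3. They are named by the nearest protein-coding start site, which is not evidence of a target. The best ranked lay in an intron of Fgfr2 (chr7:130834363-130834639), -31255 bp from Plekha1, which encodes a phosphoinositide-binding adaptor. Its folds were 20.0, 19.5 and 16.3 in replicates 1, 2 and 4, with 107, 67 and 61 fragments at the summit, and replicate 3 had no peak there. A member in an intron of Sh2b3 (chr5:121833902-121834191), the gene of the adaptor LNK that restrains cytokine signaling, had folds of 5.50, 6.96 and 5.83 and 6.71 in replicate 3. An intergenic member -67389 bp from Akap13 (chr7:75387904-75388386), a scaffold of protein kinase A signaling, had folds of 14.3, 12.2 and 11.2 and 8.59 in replicate 3. At these last loci all 4 Brg1fl/+ libraries had a peak and no Brg1fl/fl library did, whereas the member near Plekha1 was missing from Brg1fl/+ replicate 3 too. Its summit stood 82.8 times above background (mean of replicates 1, 2 and 4). Replicate 3 listed 89.3% of the 506 distal regions above 35 times background. The reason for its absence there was not tested. Near Stim2 (chr5:53995347-53995689), a calcium sensor of the endoplasmic reticulum, folds were 5.54, 8.26 and 7.95, and the nearest Brg1fl/fl peak was 2543 bp away. The others of the 10 were nearest to Bsn, Mtdh, Tor4a, Rere, Ccin and Lrrc25. The Tor4a member was 1120 bp wide with its centre 407 bp from the start, so it reached across that start.

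The 6 best ranked promoter members were those of Zfp691, Ak5, Alkbh6, Mgmt, Krr1 and Itpkb, with folds of 8.14 to 15.9, and 3 of them (Zfp691, Ak5 and Krr1) were listed in replicate 3. At Ak5, an adenylate kinase, the start site in the window is that of a transcript without a coding start there, and the nearest coding start lies 47771 bp away. The promoter of Krr1 (chr10:111972533-111972981), a factor of ribosome assembly, had folds of 15.9, 14.6 and 10.5 and 8.59 in replicate 3. The promoter of Mgmt (chr7:136894219-136894771), which repairs alkylated guanine, had folds of 12.3, 14.9 and 10.4 and no peak in replicate 3. The promoter of Itpkb (chr1:180330234-180330739), a kinase of inositol trisphosphate that tunes lymphocyte calcium signaling, had folds of 8.14, 10.7 and 11.1 and none in replicate 3. Of the 111 promoter members, 89 had a protein-coding start in the window and 22 only that of another transcript.

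Of 240 genes in 7 lists of B cell functions, 14 were nearest to a member, and together they held 17 of the 286 members (5.94%), against 3.40% of all joined regions, 2.66% of the regions in all 3 Brg1fl/+ lists and 2.30% of those in all 7 lists. The lists were chosen with earlier results of these data known, and the shares were not tested. No opposite region was nearest to a gene of these lists, but 0 of 31 is near the 3.40% of all regions. 8 members (2.80%, against 0.853% of all regions) belonged to the list of activation, cytokine and NF-kB signaling and 4 (1.40% against 0.774%) to B cell identity and germinal center factors. 3 (1.05% against 0.484%) belonged to cell cycle and proliferation and 2 (0.699% against 0.272%) to homing and migration. None belonged to B cell receptor signaling, antigen presentation or the SWI/SNF subunits, lists that held 0.599%, 0.169% and 0.248% of all regions, and 0 of 286 members is near these small shares. None was nearest to a B cell, T cell, myeloid, NK or erythroid marker gene, and 1 (Prdm1) to a plasma cell marker.

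Among the activation genes, receptors and a ligand are described first, which is not an order by rank. The promoter of Tlr4 (chr4:66827423-66827904), the receptor through which LPS acts, had folds of 8.65, 8.46 and 5.19 and no peak in replicate 3. Il21r, the receptor for the T cell cytokine IL-21, had 2 members. The first, at its promoter (chr7:125603186-125603436), had folds of 3.80, 4.01 and 4.62. The second, in an intron 2423 bp downstream (chr7:125605806-125606114), had folds of 5.54, 4.98 and 6.48. Neither was listed in replicate 3. Single members lay in an intron -5446 bp from Tnfrsf13c, the BAFF receptor (chr15:82229637-82229993, folds of 4.01, 4.47 and 5.94), and between genes 15892 bp from Icosl, the ligand of the T cell costimulator ICOS (chr10:78086664-78087442, folds of 7.62, 4.60 and 7.12). All 5 of these receptor and ligand members were weak, with folds under 10.

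Among the signal transducers and their partners, the promoter of Batf (chr12:85686412-85686881), an AP-1 factor needed for class switching, had folds of 6.31, 8.80 and 6.73, and 9.49 in replicate 3, its highest. All 4 Brg1fl/+ lists and no Brg1fl/fl list had a peak at this promoter. A second Batf member in an intron 18936 bp from the start (chr12:85705218-85705991) had folds of 6.42, 5.88 and 5.59 and none in replicate 3. Neither had a Brg1fl/fl peak within 100000 bp. A member in an intron 834 bp from the start of Stat6, which carries the IL-4 signal (chr10:127643595-127644076), had folds of 5.26, 5.19 and 5.42 and 4.98 in replicate 3, almost equal in the 4 libraries. Here a Brg1fl/fl peak lay 562 bp away, so the gene's 5' end was not without peaks.

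Of the transcription factors of B cell identity, Bcl11a had a member 119751 bp from its start (chr11:24200262-24200580), at the start of the transcript Gm12066, with folds of 10.3, 8.01 and 9.02 and 5.01 in replicate 3. Ets1, which restrains plasma cell differentiation, had a member at the end of a transcript, -43732 bp from the nearest protein-coding start (chr9:32652042-32652537), with folds of 8.38, 8.65 and 6.50. The nearest annotated start of any kind, also of Ets1, was 16051 bp away. A promoter of Runx1 (chr16:92825918-92826319), a factor that itself binds the RUNX motif, had folds of 8.79, 6.07 and 5.71. An intergenic member 76340 bp from Prdm1, the gene of the plasma cell factor Blimp-1 (chr10:44380588-44381151), had folds of 4.76, 5.96 and 4.10. Of these 4 members the Bcl11a one alone was listed in replicate 3. By gene, promoter peaks were listed in 2 Brg1fl/+ and 0 Brg1fl/fl libraries for Bcl11a and in 4 and 4 for Ets1. For Runx1 they were listed in 3 and 1, and for Prdm1 in 3 and 2. The Runx1 peak of Brg1fl/fl lay at another start, as the Brg1fl/fl peak nearest to the member was 128411 bp away.

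In the proliferation list, Myc, the driver of B cell growth, had 2 distant members in introns of the noncoding gene Pvt1, which lies next to it. The nearer, 194133 bp from the start (chr15:62181304-62181805), had folds of 10.3, 10.1 and 7.92 and 4.31 in replicate 3. The farther, 286821 bp away (chr15:62274092-62274394), had folds of 6.68, 6.72 and 8.85 and 5.84 in replicate 3. Both were found in all 4 Brg1fl/+ libraries. The promoter region of Myc itself was detected in 2 Brg1fl/+ and 4 Brg1fl/fl libraries and is no member. The promoter of Cdk6, a G1 kinase (chr5:3343641-3344539), had folds of 4.58, 4.65 and 4.31. In the homing list, an intron of Ccr7, the receptor that leads B cells to the T cell zone (chr11:99150077-99151020), had folds of 5.36, 7.85 and 6.80, and an intergenic member -130964 bp from Itga4, an integrin chain (chr2:79124355-79124716), had folds of 9.67, 9.45 and 4.61.

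**Figure D3:**
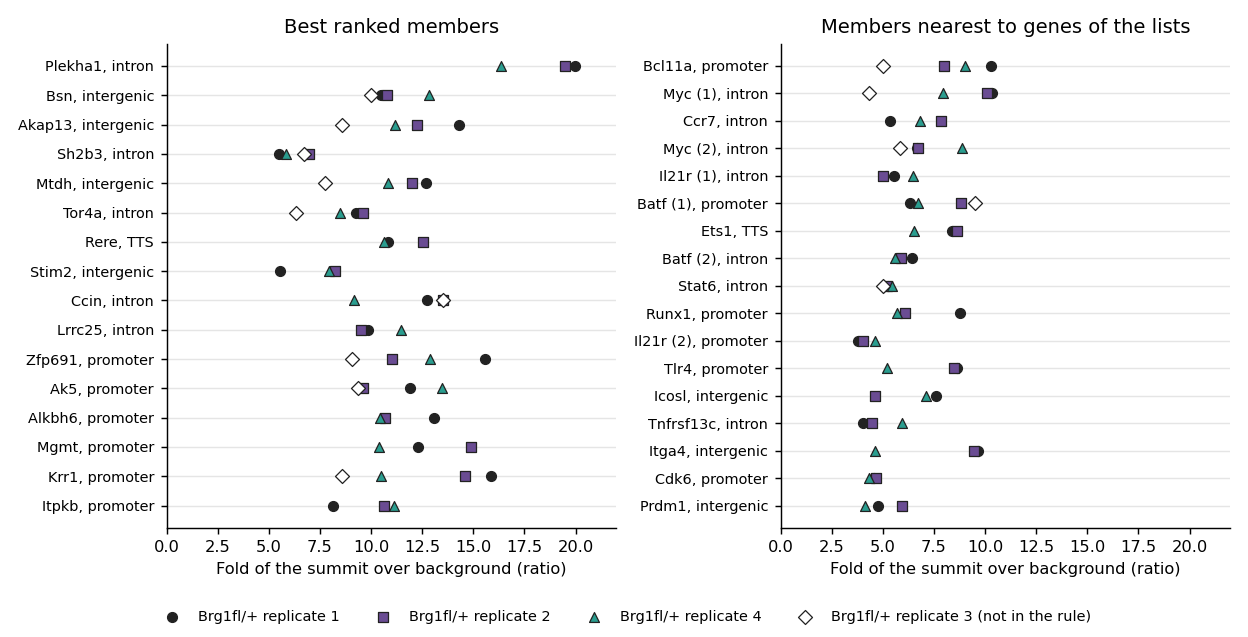
Fold of the peak summit over local background (ratio) in each Brg1fl/+ library for the 16 best ranked members (left) and the 17 members nearest to genes of the functional lists (right), named by the nearest protein-coding gene. Open diamonds mark peaks in replicate 3, which the rule did not use; no Brg1fl/fl list has a peak at any of these regions. Folds were 5.50 to 20.0 on the left and 3.80 to 10.3 on the right.

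The members were spread over 275 nearest genes, and 10 genes were nearest to more than 1, named here after their values were seen: Dnmt3a with 3, and Batf, Bhlhe40, Ccdc40, Il21r, Ksr1, Mef2a, Myc, Tcf7l2 and Vgll4 with 2 each. Dnmt3a, a de novo DNA methyltransferase, had the single cluster of 3 members within 50000 bp of each other, all in its introns. The member 4973 bp from the nearest protein-coding start (chr12:3870939-3871389) had folds of 11.8, 9.46 and 9.24 and 6.74 in replicate 3. The member at -26330 bp (chr12:3834404-3834977) had folds of 7.46, 7.75 and 6.63 and 5.96 in replicate 3. The member at -4966 bp (chr12:3855792-3856317) had folds of 7.74, 5.32 and 4.74, and it was missing from replicate 3. The nearest Brg1fl/fl peaks were 27422 to 63957 bp from these members. The 2 Ksr1 members, in introns of a scaffold of the MAP kinase pathway, and the 2 Mef2a members were all listed in replicate 3 as well, with folds of 5.69, 7.66, 5.84 and 5.47 there.

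The library that the rule left out held 67 of the 286 members (23.4%, 95% Wilson interval 18.9% to 28.7%), 53 of 175 distal (30.3%) and 14 of 111 promoter members (12.6%). The regions with a peak in all 3 Brg1fl/+ lists and in 1, 2, 3 or 4 Brg1fl/fl lists were found in it at 29.4%, 33.6%, 58.5% and 90.4%, so members were the least often found of these. Of the 31 opposite regions, 3 were found in it. In lists of equal length the order of members and opposite regions turned, with 52 of 108 members and 59 of 82 opposite regions in replicate 3, and 49 of 103 and 26 of 42 without repeat-rich regions. Where replicate 3 did list a member, the median fold was 6.43 with 10 fragments at the summit. This library had the lowest background of the 8, at 2.76 fragments per kb. With a peak required in all 4 Brg1fl/+ lists, the 67 regions were 79.1% distal.

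To set members beside regions of like strength, the regions of the 3 Brg1fl/+ lists were divided by summit height over background, a division added after the data were seen. From 12 to 16 times background, 34.1% of 123 distal and 22.6% of 124 promoter regions had no Brg1fl/fl peak. From 20 to 25 times, the shares were 19.8% of 182 distal and 4.81% of 437 promoter regions. From 25 to 35 times they were 12.4% of 283 and 1.57% of 1021, and above 35 times 3.16% of 506 and 0.175% of 4005. Below 12 times the order turned, with 13.0% of 77 distal and 38.1% of 21 promoter regions. Members were thus mainly weak regions of both kinds, and above 12 times background the distal share was the higher at each height. The rule used this contrast, and no test was made of it.

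**Figure D4:**
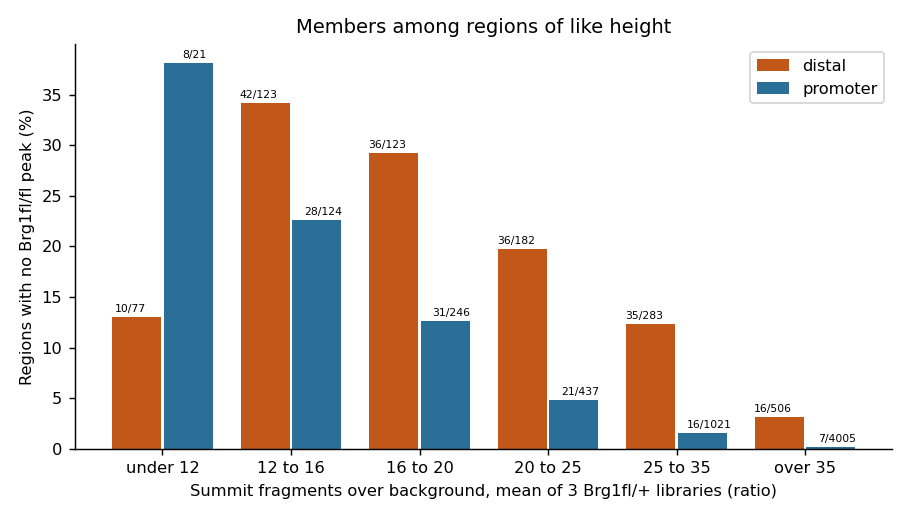
Share (%) of regions with a peak in all 3 Brg1fl/+ lists that had no Brg1fl/fl peak, by summit height over background (ratio, mean of 3 libraries); members over regions are printed on each bar. The distal bars are the higher from 12 upward, at 34.1% against 22.6% in the first of these and 3.16% against 0.175% in the last.

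The 7148 regions of the 3 Brg1fl/+ lists were also looked for in the libraries that had not chosen them, 1 of Brg1fl/+ and 4 of Brg1fl/fl, a design in which no difference could pass the test. These 5 libraries were not on an equal footing. Peaks of the Brg1fl/fl libraries helped set the borders of the joined regions, and those of Brg1fl/+ replicate 3 did not. Brg1fl/+ replicate 3 detected 65.5% of the 1294 distal and 80.0% of the 5854 promoter regions. The Brg1fl/fl libraries detected 78.2%, 58.7%, 76.4% and 77.4% of the distal and 94.8%, 76.9%, 93.2% and 94.0% of the promoter regions in replicates 1 to 4. Distal minus promoter detection was -14.5 points in Brg1fl/+ replicate 3 and -16.6, -18.2, -16.8 and -16.6 points in Brg1fl/fl, higher in the Brg1fl/+ library by 2.52 points than the Brg1fl/fl mean (1 library against 4, two-sided exact permutation test, p = 0.2, the smallest possible). With peaks required to cover 50% of a region, the difference was 14.0 points. The values are given as a description. Within height, distal minus promoter detection from 16 to 20 times background was 16.7 points in Brg1fl/+ replicate 3 and -17.9 to 6.50 points in Brg1fl/fl, from 20 to 25 times 0.845 against -17.5 to -0.577 points, from 25 to 35 times -3.55 against -17.4 to -14.7 points, and above 35 times -3.78 against -9.41 to -4.58 points. Below 12 times background the Brg1fl/+ value lay under all those of Brg1fl/fl, at 17.7 against 36.4 to 54.5 points, and from 12 to 16 times it lay between them, at 26.1 against -2.76 to 30.2 points.

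**Figure D5:**
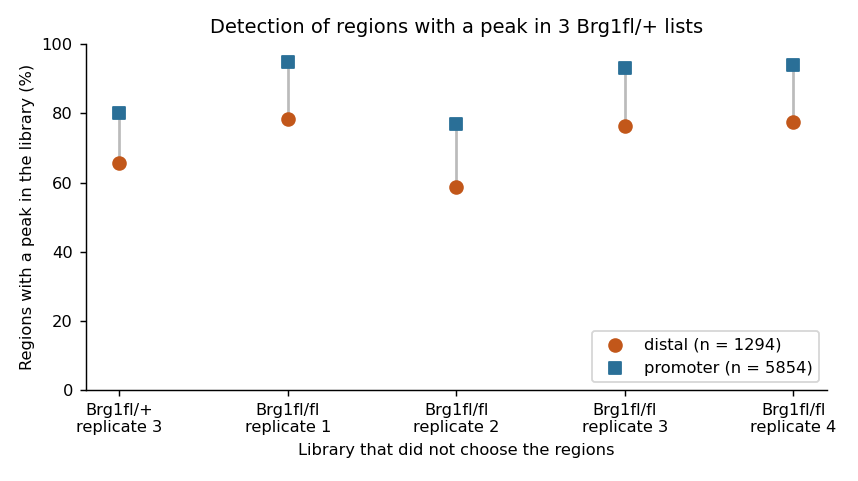
Share (%) of the distal (circles) and promoter (squares) regions of the 3 Brg1fl/+ lists with a peak in each library that did not choose them. Lines join the 2 values of a library; distal detection was lower in each, by 14.5 points in Brg1fl/+ replicate 3 and by 16.6 to 18.2 points in Brg1fl/fl.

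How many members, at their Brg1fl/+ strength, would have exceeded peaks of the Brg1fl/fl lists depended on how libraries were scaled. That strength is the mean of the 3 Brg1fl/+ lists that chose the members, so the choice itself can raise it. A summit above the lowest peak of a list need not be listed, since calls also depend on local background. Scaled by background, all 286 would have exceeded the lowest peak of each Brg1fl/fl list, 271 (94.8%) the 10th percentile and 96 (33.6%) the median. Scaled by the shared promoters, whose summits were lower in Brg1fl/fl, 228 (79.7%) would have exceeded the lowest peak, 104 (36.4%) the 10th percentile and 10 (3.50%) the median. Of the 104, 71 were distal and 35 were listed in replicate 3. On the second scale the members that did not exceed the lowest peak of every list fell short almost always in Brg1fl/fl replicate 2, where 228 exceeded it, against 284 or 285 in the other libraries.

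Membership turned on single lists. Of the 255 regions that only 1 Brg1fl/fl list kept out of the rule, 93 were listed in replicate 1, 86 in replicate 4, 62 in replicate 3 and 14 in replicate 2, the shortest list. Leaving out Brg1fl/+ replicate 4 raised the number of members from 286 to 1900, of which 6.89% were in replicate 3. Just inside the rule were members near Tldc1, 1700001O22Rik and Srgap3, whose lowest −log10 q was 1.35, 1.45 and 1.53. Just outside were regions in introns nearest to Tomm20, Ppp1r16b and Map3k7, with a single peak of −log10 q of 1.37, 1.67 and 1.85 in Brg1fl/fl replicate 3. Of the 286 members, 183 remained when peaks under a −log10 q of 5 were dropped, 61 when those under 10 were, 184 when peaks had to cover 50% of the region and 38 in lists of equal length. All 4 of these left 23 members, 16 of them distal, and 40 members were left by none. Among the 23 were the members near Plekha1, Akap13, Sh2b3 and Rere, the nearer Myc member in Pvt1, the Dnmt3a member at 4973 bp and the promoters of Krr1 and Alkbh6. Of the 17 members nearest to genes of the functional lists the Myc one alone was there, and those near Icosl, Cdk6 and Prdm1 were left by none.

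The 3 strongest of all members were narrow. An intergenic region on chromosome 12 (chr12:3109875-3110088) had folds of 39.9 to 43.2 in the 4 Brg1fl/+ lists and is 100% repeat-masked. A region on chromosome 6 (chr6:9889948-9890152), with folds of 34.7 to 36.2, shares 84.3% of its 15-bp words with mitochondrial DNA. A region on chromosome 8 (chr8:83756773-83756985) has 31 copies of the telomere repeat unit. The summit fragments of the first and second varied little between libraries: the first had 245, 238, 237 and 243 fragments in replicates 1 to 4, and the second 261, 256, 259 and 261, in libraries whose background spanned 2.76 to 6.47 fragments per kb. All 3 were narrower than the shortest peak of any Brg1fl/fl list. Of the 286 members, 5 were narrower than 243 bp, the longest of the shortest peaks of the 4 Brg1fl/fl lists. More than 50% repeat-masked were 13, together 15 (5.24%), and leaving out the repeat-rich regions gave 273 members, 59.7% of them distal.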

How the data were processed

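ATAC-seq peak lists of 8 libraries, 4 of each genotype, were analysed, and the 8 RNA-seq libraries of the series were not analysed here. The authors used Bowtie2 to align the reads to mm10, and MACS2 gave 1 peak list for every library (versions and options are not given in the sources used here). Each deposited list holds a peak's position, summit, display score, fold (a ratio of summit pileup to local background) and −log10 p and −log10 q, all as written by the authors' caller. Coverage tracks and the authors' deepTools and DESeq2 comparison were not used.

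Peaks were joined across libraries 1, 2 and 4 of Brg1fl/+ and 1 to 4 of Brg1fl/fl with an overlap of at least 1 bp. Fragments at each summit and the background of each library were solved from fold and −log10 p (misfit at most 0.002). Where a value was solved, depth is known only through this background. Regions were annotated by their centre with GENCODE start sites of GRCm38, motifs were searched on both strands within 100 bp of the summit, and repeats are soft-masked bases. Libraries were compared by two-sided exact permutation tests at a threshold of 0.05, and the code was tested on simulated data. Intervals and shares cover counting error only.

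The members and gene lists were chosen with earlier results of these data known. Named are the 10 distal and 6 promoter members with the best worst rank by q among those neither narrow (under the shortest Brg1fl/fl peak) nor over 50% masked, the 3 best of the rest, members nearest to a gene of the functional lists (at most 20), clusters of 3 within 50000 bp, and the 3 regions just inside and just outside the rule. Alternatives were stricter q, equal list lengths, cover, joining, repeats, promoter windows, scaling, a replicate block and leaving out each library. Same-numbered libraries did not deviate together (r from -0.0386 to -0.00492 over 3981 promoters), so numbers were not taken as pairs. Tools were samtools 1.23.1 and pysam 0.24.0 for sequence, pandas 2.3.3 and numpy 2.4.6 for tables, and scipy 1.17.1 and matplotlib 3.10.9, all under Python 3.11.15.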

Additional observations from a re-analysis of the deposited data

Results flagged for a closer look

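A library was singled out when it stood apart from the other 3 of its genotype by more than the 95% critical value of Dixon's ratio for groups of 4. Of 13 groups tested, 5 had such a library. Chance alone gives about 1 in 20 for a single group. The groups share libraries, and 1 measure is the difference of 2 others, so the 5 are not independent. In 4 of the 5 it was Brg1fl/fl replicate 2, the shortest list of its genotype. Peaks there had a median width of 411 bp, and the other Brg1fl/fl libraries lay between 486 and 494 bp. It detected 58.7% of the distal regions with a peak in 3 Brg1fl/+ lists, against 76.4% to 78.2%, and 76.9% of the promoter regions, against 93.2% to 94.8%. Its distal minus promoter detection was -18.2 points, against -16.8 to -16.6 points. The remaining value was the shortest peak of Brg1fl/fl replicate 1, 243 bp against 231 to 233 bp.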

How the results depend on the processing

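With a peak required in all 4 Brg1fl/+ lists there were 67 members, 79.1% of them distal. At −log10 q of at least 5, 9 opposite regions remained and 55.0% of members were distal; at 10 the values were 3 and 38.9%, with 14.8% of members in Brg1fl/+ replicate 3. In lists of equal length there were 108 members and 82 opposite regions, 45.4% of members were distal and 48.1% were in replicate 3, and without repeat-rich regions as well (added after seeing the data) these were 103 members, 43.7% and 47.6%. With 50% cover, 17.5% were in replicate 3. Leaving out repeat-rich regions left 13 opposite regions. The wider promoter window gave 53.1% distal and start sites of coding transcripts 68.9%. Scaled by shared promoters, 104 members were above the 10th percentile of the Brg1fl/fl lists. Leaving out 1 library at a time gave 292 to 1900 members (1900 without Brg1fl/+ replicate 4), 40 to 74 opposite regions (74 without Brg1fl/+ replicate 1, and 71, 54 and 53 without Brg1fl/fl replicates 2, 3 and 4), 54.2% to 60.3% distal and 6.89% to 26.1% in replicate 3 (6.89% without Brg1fl/+ replicate 4). Across the same omissions the difference in shared promoter height was 27.2 to 34.2 and that in the shortest peak -36.75 to -32 bp, with exact permutation p of 0.0667 to 0.1, the smallest those designs allow. With the replicate block they were 30.0 and -35.3 bp (exact p = 0.25, the smallest for 3 pairs), and with grouped libraries averaged (added after seeing the data) 28.0 and -33.8 bp (exact p = 0.333). Except where fewer libraries were left, the cause was not tested. Distal regions were thus a minority of members at −log10 q of at least 10 and in lists of equal length, and in the latter opposite regions were found in replicate 3 more often (59 of 82) than members (52 of 108), the reverse of the full lists. The distal share of the other regions is not given for these settings. Differences between genotypes in list length, background, shared promoter height and shortest peak kept their sign under these alternatives. That in distal minus promoter detection did too, but turned below 12 times background. Of 135 values, 91 were labelled the same, which for these differences meant the same sign and test outcome, not a like size. Distal minus promoter detection could not pass the test, and its difference was 2.52 points in the full lists. With 50% cover it was 14.0 points, in lists of equal length 7.09 and with start sites of coding transcripts 0.896. Of the motif shares, 11 of 17 moved with a window of 250 bp, and 15 of 17 kept their side of the share in regions of all lists. The number of members moved most without Brg1fl/+ replicate 4, the shortest Brg1fl/+ list in the rule.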
